A study of Mus musculus with 6 samples.

Results

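The 10 mature miRNAs described here come from 7 hairpins near the imprinted non-coding genes Meg3 and Rian on mouse chromosome 12. They were the rows of the deposited table whose names matched a list of chromosome 12 miRNAs lying outside the group antisense to Rtl1, and all 10 were found among 1034 distinct miRNAs. Nephron progenitors, the kidney cells that give rise to nephrons, were compared between CD1 mouse embryos at E14.5 and pups on the day of birth (P0), with 3 libraries per stage. Each library was 1 litter's pooled kidney cells, selected on beads with an antibody against the integrin Itga8. The labels give no genotype, agent or treatment other than the stage, and E14.5 and P0 replicates 1 to 3 came from different litters.

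The region between Dlk1 and Dio3 is imprinted: Dlk1, Rtl1 and Dio3 are expressed from the paternal chromosome, and the non-coding RNAs Meg3, Rian and Mirg from the maternal one. The miRNAs of the region lie on the strand of these maternal RNAs and are thought to be cut from long maternal transcripts. A miRNA hairpin can give a 5p and a 3p arm, and the arm that is loaded into the silencing complex finds its targets mainly through its seed, bases 2 to 8.

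The mature sequences are shown because the members are neighbours in the genome but not a sequence family. All 10 matched RefSeq (GRCm38.p6, read 5′ to 3′, plus strand), and the seed is in capitals. The prefix mmu- (mouse) is dropped further on.
mmu-miR-673-5p: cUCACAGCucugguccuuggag
mmu-miR-673-3p: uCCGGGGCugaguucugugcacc
mmu-miR-493-3p: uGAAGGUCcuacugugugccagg
mmu-miR-337-5p: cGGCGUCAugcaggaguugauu
mmu-miR-337-3p: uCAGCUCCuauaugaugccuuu
mmu-miR-540-5p: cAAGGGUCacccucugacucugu
mmu-miR-540-3p: aGGUCAGAggucgauccugg
mmu-miR-665-3p: aCCAGGAGgcugaggucccu
mmu-miR-341-3p: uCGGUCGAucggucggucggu
mmu-miR-370-3p: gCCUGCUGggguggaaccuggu
The 10 seeds were all distinct, and no member shared its whole sequence with another mature miRNA. Outside the group, miR-6985-3p carries the seed of miR-673-5p and miR-6915-5p that of miR-540-3p. miR-341-3p is a repeat-like sequence with 4 copies of the run UCGG.

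In GENCODE M21 (build GRCm38), 8 of the members lay within 14.4 kb in the interval between the end of Meg3 and the nearest end of Rtl1, outside both genes. Their positions on chromosome 12 run from miR-673-5p at chr12:109572004-109572025, past miR-493-3p at chr12:109580283-109580305 and the arms of miR-337 at chr12:109585818-109585839 and chr12:109585850-109585871, to miR-665-3p at chr12:109586368-109586387. miR-540-5p and miR-540-3p (chr12:109586085-109586107 and chr12:109586122-109586141) sit between miR-337 and miR-665. The other 2 members, miR-341-3p at chr12:109611556-109611576 and miR-370-3p at chr12:109618305-109618326, lay in introns of Rian on its own strand. Another annotated miRNA gene, Mir3544, overlaps the miR-337 hairpin. Whether the authors' counting used the strand is not given in the sources used here.

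Depth and library likeness bear on the values that follow. The whole reads recovered from the deposited TPM values, which are read counts divided by length and scaled to a library total of 1000000, ranged from 2649506 in E14.5 replicate 1 to 34934526 in P0 replicate 1. P0 replicate 1 stood apart from its group: its mean Pearson correlation of log2(TPM + 1) over 670 miRNAs was 0.948 with those of E14.5 and 0.908 with P0 replicates 2 and 3, which correlated at 0.976 with each other. Results are therefore also given without it. Markers of other cell types also moved: summed TPM of 2 endothelial miRNAs was 26608 to 44921 at E14.5 and 5634 to 8158 at P0, that of 9 stromal miRNAs 85580 to 102772 and 33691 to 46708, and that of 5 epithelial miRNAs 4122 to 23183 and 500.2 to 1542. Of these lists, 2 of 2, 6 of 9 and 5 of 5 were called lower in TPM by limma, against 32.8% of all 670 tested miRNAs. The erythroid list (5 miRNAs) summed to 242 to 417 TPM at E14.5 and 128 to 194 at P0, with 1 of 5 called lower, and the leukocyte list (4 miRNAs) to 632 to 1202 and 454 to 629, with 0 of 4 called. After the median-of-ratios scaling described next, 1 endothelial, 0 stromal, 0 erythroid and 3 epithelial miRNAs were called lower, and 1 leukocyte miRNA higher. On that scale 5.22% of all tested miRNAs were called lower and 5.67% higher. No defining marker of nephron progenitors was on the miRNA lists, so the labelled cell type was not checked directly. The part of cell composition in the values below was not tested, and in bulk samples fewer cells of a type cannot be told apart from less RNA per cell.

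**Figure D1:**
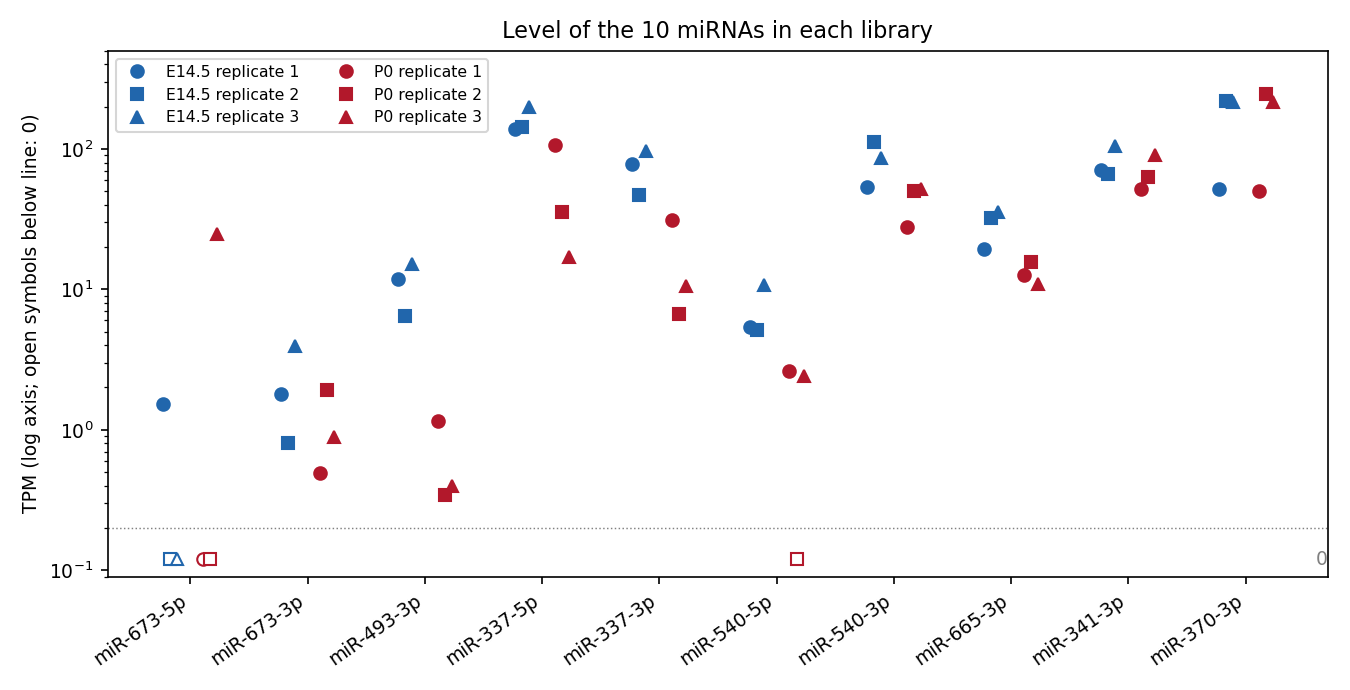
TPM on a log axis of each of the 10 miRNAs in each of the 6 libraries (blue E14.5, red P0, symbols for the replicates, open symbols for a value of 0). The stages do not overlap for 6 members, each lower at P0: miR-493-3p, both arms of miR-337, both arms of miR-540 and miR-665-3p. Of all tested miRNAs, 49.6% do not overlap (46.4% lower). The stages overlap for miR-341-3p, miR-370-3p and both arms of miR-673.

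In TPM, miR-493-3p and both arms of miR-337 were called lower at P0. The other 7 members, some between Meg3 and Rtl1 and some in Rian, were not called. Of these 3 falls, only that of miR-493-3p was called in TPM and after both scalings described next. In log2(TPM + 1), limma called 3 of the 10 members lower at P0 and 0 higher, against 32.8% of all 670 tested miRNAs called lower and 1.34% called higher (34.2% called in all). An unadjusted p-value below 0.05 was reached by 4 members. All 10 passed the filter of a mean of at least 1 TPM. The share called, 3 of 10, was thus close to that of all miRNAs. The median log2 fold change was −1.0 over the members and −1.20 over all tested miRNAs. Because the typical miRNA was lower at P0 in TPM, changes are also given after median-of-ratios scaling, which brought the median of all miRNAs to −0.17 and that of the members to 0.21. On that scale limma called 1 member lower and 0 higher, against 5.22% of all miRNAs lower and 5.67% higher (10.9% in all). With upper-quartile scaling limma again called miR-493-3p lower and no other member, against 9.4% of all miRNAs (3.73% lower and 5.67% higher). The balance of all calls also moved, from 9 higher and 220 lower in TPM to 38 higher and 35 lower after median-of-ratios scaling. In TPM the stages did not overlap for 6 of the 10 members, each lower at P0, against 49.6% of all tested miRNAs (46.4% lower). After median-of-ratios scaling they did not overlap for 1 member, miR-493-3p, against 35.4% of all (19.7% lower).

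miR-493-3p had the largest fall among the members in TPM. E14.5 replicates 1, 2 and 3 held 11.9, 6.48 and 15.1 TPM of it, and the P0 replicates 1.15, 0.344 and 0.400 TPM. Every P0 library was below every E14.5 library. On the log2(TPM + 1) scale it fell by 2.86 with a SE of 0.56 (limma adjusted p = 0.00485). With a pseudocount of 0.1 in place of 1 the estimate was −4.03 (limma adjusted p = 0.0107). The median-of-ratios values fell by 2.05 with a SE of 0.52 (limma adjusted p = 0.0407). It rested on few reads, 33, 160 and 81 at E14.5 and 42, 8 and 9 at P0. limma-voom on the recovered reads did not call it, with a log2 fold change of −2.63 and an adjusted p of 0.107. In TPM it was called whichever single library was left out. On scaled values only the omission of P0 replicate 1 was run, and it was called there at −2.21 (limma adjusted p = 0.00777). The other arm of its hairpin, miR-493-5p, which is no member, was at 31.8, 19.7 and 37.5 TPM at E14.5 and at 6.27, 2.31 and 0.489 TPM at P0, and its log2 change in TPM was −3.17 (limma adjusted p = 0.00611), against −2.15 and no call on scaled values (limma adjusted p = 0.0588). Without P0 replicate 1 the scaled change of miR-493-5p was −2.60 and was called (limma adjusted p = 0.00786).

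Both arms of miR-337 fell in TPM. miR-337-5p, the second most abundant member, had 138, 143 and 198 TPM at E14.5 and 106, 35.7 and 17.0 TPM at P0. miR-337-3p had 78.0, 46.6 and 96.7 TPM at E14.5 and 31.2, 6.66 and 10.6 TPM at P0. For both arms all P0 libraries were below all E14.5 libraries, and P0 replicate 1 was the highest of its group. The log2 fold changes in TPM were −1.94 for the 5p arm (SE 0.68, limma adjusted p = 0.0436) and −2.34 for the 3p arm (SE 0.66, limma adjusted p = 0.0191). On the scaled values they were −0.67 (limma adjusted p = 0.423) and −1.10 (limma adjusted p = 0.187), with overlapping stages. Without P0 replicate 1 the changes in TPM were −2.62 and −2.93 (limma adjusted p = 3.06e-04 and 3.14e-04), on a background of 61.0% of miRNAs called (53.0% lower and 7.98% higher). Without it and with scaling they were −1.13 and −1.48 (limma adjusted p = 0.0531 and 0.0234), with 48.0% of miRNAs called (25.4% lower and 22.6% higher). In TPM the call of the 3p arm was lost without E14.5 replicate 1 or 3 or P0 replicate 2 (limma adjusted p = 0.0688, 0.102 and 0.0934). That of the 5p arm was lost without any 1 library other than P0 replicate 1 (limma adjusted p from 0.0951 to 0.194), and with a pseudocount of 0.1 (0.0512).

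miR-540-3p and miR-665-3p, from the hairpins next to miR-337, did not pass the threshold, and the sign of their estimates depended on the scaling. miR-540-3p had 54.0, 112 and 86.8 TPM at E14.5 and 27.8, 49.8 and 51.9 TPM at P0. The estimate in log2(TPM + 1) was −0.94 with a SE of 0.58 (limma adjusted p = 0.204), and it turned to 0.33 on scaled values (limma adjusted p = 0.719). miR-665-3p had 19.2, 32.1 and 35.5 TPM at E14.5 and 12.6, 15.7 and 10.9 TPM at P0. The corresponding estimates were −1.06 with a SE of 0.57 (limma adjusted p = 0.149) and 0.17 on scaled values (limma adjusted p = 0.860). In TPM neither miRNA overlapped between the stages, and in both cases the stages overlapped after scaling.

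miR-540-5p, the minor arm of its hairpin, had 5.42, 5.10 and 10.7 TPM at E14.5. At P0 it had 2.61 TPM in replicate 1, 0 in replicate 2, where a count of 0 allows up to 0.129 TPM, and 2.40 TPM in replicate 3. These were 15, 126 and 57 reads at E14.5 and 95, 0 and 54 at P0. Its log2 fold change of −1.74 in TPM had a SE of 0.64 and missed the threshold (limma adjusted p = 0.0515), and the scaled estimate was −0.94 (limma adjusted p = 0.347). With a pseudocount of 0.1 the estimate in TPM was −2.94 (limma adjusted p = 0.0884). Without P0 replicate 1 the change in TPM was −2.06 (limma adjusted p = 0.0170), in a setting that called 61.0% of all miRNAs. On scaled values without that library the estimate was −1.20 and was not called (limma adjusted p = 0.188).

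The 2 Rian members differed between the stages in TPM by less than the spread between libraries, with wide intervals. miR-341-3p had 71.2, 66.7 and 104 TPM at E14.5 and 51.5, 63.4 and 91.1 TPM at P0, with an estimate of −0.24 (95% interval −1.44 to 0.96, limma adjusted p = 0.735) that turned to 1.04 on scaled values (−0.12 to 2.19, limma adjusted p = 0.184). miR-370-3p, the most abundant member by its mean over all libraries, had 51.5, 218 and 215 TPM at E14.5 and 49.9, 244 and 217 TPM at P0. The low libraries were replicate 1 of each stage, and the other 4 lay between 215 and 244 TPM. In TPM the estimate was 0.05 (95% interval −1.60 to 1.69, limma adjusted p = 0.970), and on scaled values 1.33 (−0.54 to 3.20, limma adjusted p = 0.284). In TPM its sign turned without E14.5 replicate 1, P0 replicate 2 or P0 replicate 3. Without P0 replicate 1, scaled values of miR-341-3p and miR-370-3p were higher at P0 by 1.45 and 2.29 on the log2 scale (limma adjusted p = 0.00955 and 0.0133), a setting in which 22.6% of miRNAs were called higher. In TPM without that library they were at −0.06 and 0.77, neither called (limma adjusted p = 0.898 and 0.243).

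The arms of miR-673, the member hairpin nearest to Meg3, had few reads: the 3p arm was read in every library and the 5p arm in 2 of 6. miR-673-3p had 1.81, 0.810 and 3.92 TPM at E14.5 and 0.494, 1.93 and 0.889 TPM at P0, from 5 to 45 reads per library. The stages overlapped, and the estimate of −0.53 (limma adjusted p = 0.452) turned to 0.25 on scaled values (limma adjusted p = 0.786). miR-673-5p had 4 reads in E14.5 replicate 1, 535 reads (24.9 TPM) in P0 replicate 3 and 0 in the other 4 libraries, where a count of 0 allows between 0.0863 and 0.587 TPM. The P0 mean of miR-673-5p therefore came from 1 library, and its log2 fold change of 1.12 in TPM had a SE of 1.03 (limma adjusted p = 0.387). Without P0 replicate 3 it was below the filter and was not tested.

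**Figure D2:**
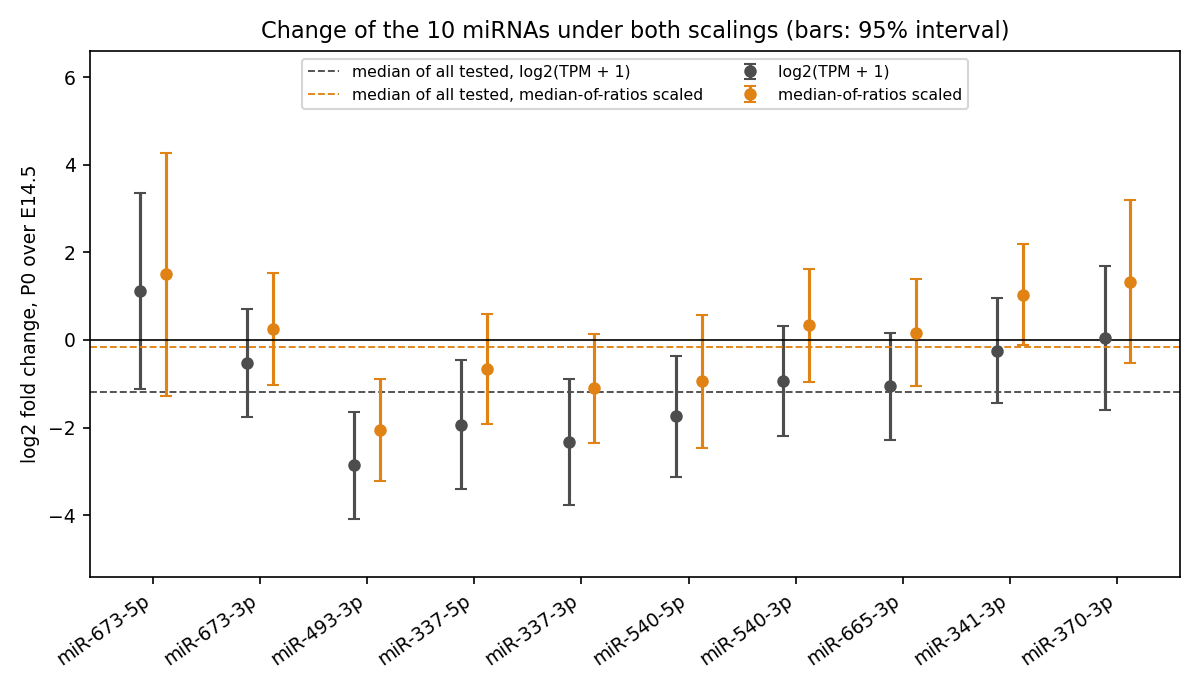
Log2 fold change of each member, P0 over E14.5, in log2(TPM + 1) (grey) and after median-of-ratios scaling (orange), with 95% intervals from limma; dashed lines are the medians of all 670 tested miRNAs, at −1.20 and −0.17. The interval of miR-493-3p is below 0 on both scales, and those of miR-341-3p and miR-370-3p include 0 on both.

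The order of the members by level was as follows at E14.5: miR-370-3p and miR-337-5p at 161 ± 95.1 and 160 ± 33.3 TPM (mean ± SD, n = 3), then miR-540-3p, miR-341-3p and miR-337-3p at 84.3 ± 29.2, 80.8 ± 20.6 and 73.8 ± 25.3 TPM. miR-665-3p followed at 28.9 ± 8.56 TPM, and the remaining members were below 20 TPM in every E14.5 library. Within the first pair, and among the next 3, the means differed by less than the spread between libraries. At P0, miR-370-3p stood at 170 ± 105 TPM, miR-341-3p at 68.7 ± 20.3, miR-337-5p at 53.0 ± 47.1 and miR-540-3p at 43.2 ± 13.4 TPM. There miR-337-3p, at 16.1 ± 13.2 TPM, was no longer beside miR-341-3p. TPM divides reads by length (here end minus start), which gives a shorter miRNA a higher value for the same number of reads. How well each sequence was captured was not measured, so the order of close levels is not firm. By mean TPM over all libraries the members ranked from 183 (miR-370-3p) to 596 (miR-673-3p) among the 1034 miRNAs.

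Ratios within a library do not depend on the scaling between libraries. The 2 Rian members made up 28.4%, 45.1% and 41.7% of the members' summed TPM in E14.5 replicates 1, 2 and 3. In the P0 replicates they made up 35.8%, 73.6% and 72.2%. P0 replicates 2 and 3 were above every E14.5 library, and P0 replicate 1 lay among the E14.5 libraries. The difference of 22.2 percentage points did not pass an exact two-sided permutation test (p = 0.3, the smallest possible being 0.1). Without P0 replicate 1 it was 34.5 points (exact permutation p = 0.1, 2 against 3 libraries). The members together held 3.40%, 3.64% and 3.99% of the TPM of 100 listed miRNAs of the imprinted cluster at E14.5 and 2.71%, 2.50% and 2.55% at P0. These stage values did not overlap, and the difference of −1.09 points had the smallest p that 3 libraries against 3 allow (exact two-sided permutation p = 0.1). Leaving out any 1 library kept it between −1.23 and −0.94 points. Part of that denominator was miR-382-5p of the Mirg group, at 950.2, 1658 and 2091 TPM at E14.5 and 814, 5506 and 5463 TPM at P0; its part in the difference was not tested.

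The hairpins with both arms among the members are shown because arm use is read from them. They are the RefSeq hairpins of GRCm38.p6, plus strand, 5′ to 3′, with the 5p arm and then the 3p arm in capitals.
Mir673: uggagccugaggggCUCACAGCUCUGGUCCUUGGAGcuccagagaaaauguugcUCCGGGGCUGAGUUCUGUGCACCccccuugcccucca
Mir337: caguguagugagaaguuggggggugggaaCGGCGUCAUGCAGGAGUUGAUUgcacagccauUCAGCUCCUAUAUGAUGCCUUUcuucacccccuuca
Mir540: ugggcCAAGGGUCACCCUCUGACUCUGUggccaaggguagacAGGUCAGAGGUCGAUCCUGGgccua
They lie at chr12:109571990-109572080, chr12:109585789-109585885 and chr12:109586080-109586146.

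miR-337 was read mainly from its 5p arm in every library. The 5p arm took 63.9%, 75.4% and 67.2% of the reads of both arms at E14.5 and 77.3%, 84.3% and 61.7% at P0, where the 95% Wilson interval of the last was 57.7% to 65.5%. The stages overlapped, and the log2 ratio of 5p to 3p differed by 0.47 (exact two-sided permutation p = 0.5, the smallest possible being 0.1). miR-540 was read mainly from its 3p arm. Its 5p arm took 10.4%, 5.00% and 12.4% at E14.5 and 9.80%, 0% and 5.08% at P0. The value of 0 came from 1002 reads, which allows a share of up to 0.299%. Over all 6 libraries the mean share was 9.29% at E14.5 and 4.96% at P0, a difference of −4.33 points with overlapping stages (exact two-sided permutation p = 0.3, the smallest possible being 0.1). The log2 ratio of its arms has no value in P0 replicate 2, whose share was the lowest, so no test of that ratio is given. In miR-673 the log2 ratio could not be tested, since the 5p arm was at 0 in 4 libraries. Its mean 5p share was 14.8% at E14.5 and 32.1% at P0, from E14.5 replicate 1 and P0 replicate 3 alone. The stages overlapped, and the difference of 17.3 points did not pass an exact two-sided permutation test. The 5p arm took 96.4% of 555 reads in P0 replicate 3 (95% Wilson interval 94.5% to 97.7%) and 0 of 45 reads in P0 replicate 2, which allows a share of up to 6.67%.

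The remaining hairpins of Meg3 and Rian were added to the arm comparison after their values were seen, which made 8 hairpins in all. Stage values did not overlap for 2 of them, each with the smallest p that 3 libraries against 3 allow (exact two-sided permutation p = 0.1, and 0.4 after Benjamini-Hochberg adjustment over the 8 hairpins). Neither difference passed 0.05. The 5p arm of miR-665 took 11.5%, 5.13% and 8.89% of the reads at E14.5 and 0.252%, 0.315% and 0% at P0. That is 6, 37 and 16 reads of miR-665-5p at E14.5, and 1, 1 and 0 at P0, where the 0 of 211 reads allows up to 1.42%. In miR-770, which lies within Meg3, the 5p arm took 48.2%, 40.5% and 39.2% at E14.5, 34.9% in P0 replicate 1 and 0% in P0 replicates 2 and 3. The last values came from 575 and 638 reads of both arms, which allow up to 0.522% and 0.470%. For miR-493 and miR-337 the 5p arm remained the major one or, in P0 replicate 3 with 18 reads of miR-493, took 50.0% (95% Wilson interval 29.0% to 71.0%). For miR-341 and miR-370 it took at most 7.73% and 17.6% in any library.

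**Figure D3:**
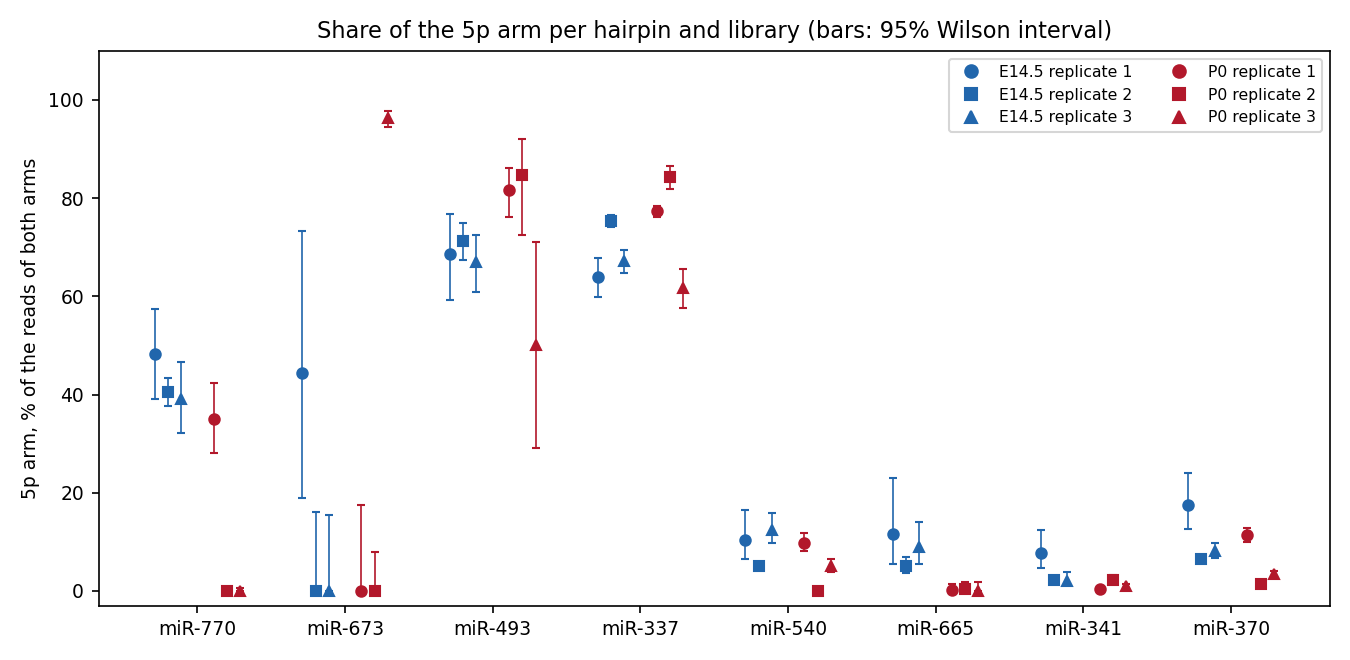
Share of the 5p arm in the reads of both arms for 8 hairpins, in percent, per library, with 95% Wilson intervals that cover counting error only. The 5p arms of miR-770 and miR-665 are at or near 0 in P0 replicates 2 and 3, miR-673 is high only in P0 replicate 3 and E14.5 replicate 1, and miR-337 stays above 60% in each library.

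Other miRNAs of the locus give the surroundings of the members. Of 7 further mature miRNAs of Meg3 and Rian in the table, 6 were tested, of which 2 were called lower in TPM (miR-493-5p and miR-770-5p) and 0 higher. miR-770-5p had 20.4, 19.2 and 13.1 TPM at E14.5, 1.70 TPM in P0 replicate 1 and 0 in the others. In TPM its log2 change was −3.72, with a SE of 0.60 (limma adjusted p = 0.00332), and on scaled values −3.08 (limma adjusted p = 0.0318). The 3p arm, miR-770-3p, had 22.0, 28.2 and 20.4 TPM at E14.5 and 3.16, 25.9 and 29.7 TPM at P0, with overlapping stages and no call: its estimate was −0.69 (limma adjusted p = 0.466) and turned to 0.55 on scaled values (limma adjusted p = 0.696). With P0 replicate 1 left out, miR-770-3p was at 0.24 in TPM, not called (limma adjusted p = 0.637), and at 1.71 on scaled values, called higher (limma adjusted p = 0.0105). The other tested miRNAs of this list were not called on either scale: miR-341-5p was at −1.14 in TPM and −0.34 on scaled values (limma adjusted p = 0.133 and 0.721), and miR-370-5p at −1.24 and −0.06 (limma adjusted p = 0.103 and 0.935). miR-1188-5p, from Rian, was at −0.56 in TPM and turned to 0.53 on scaled values (limma adjusted p = 0.489 and 0.612). In TPM without P0 replicate 1, miR-370-5p was called at −1.31 (limma adjusted p = 0.0497). miR-665-5p, with a mean of 0.987 TPM, did not pass the filter over all libraries. It passed without P0 replicate 1, where it was called in TPM at −1.51 (limma adjusted p = 0.0266) and not called on scaled values at −1.09 (limma adjusted p = 0.0611). Of 10 Rtl1 antisense miRNAs, limma called 1 lower and 0 higher in TPM, with a median of −0.63, and 0 lower and 2 higher after scaling, with a median of 0.66. Their most abundant members, miR-127-3p and miR-431-5p, were at 0.49 and −0.72 in TPM on the log2 scale, neither called, and at 1.79 and 0.57 on scaled values, of which the first was called (limma adjusted p = 0.0418). With P0 replicate 1 left out, miR-127-3p and miR-431-5p were at 2.06 and 1.40 on scaled values, both called (limma adjusted p = 0.00205 and 0.00518), and neither was called in TPM (limma adjusted p = 0.189 and 0.707). Of 63 tested miRNAs of the miR-379 to miR-410 and Mirg group, 26 were called lower and 1 higher in TPM (median −1.38), and 5 lower and 1 higher after scaling (median −0.43). The most abundant of them, miR-379-5p and miR-382-5p, were at 0.15 and 0.96 in TPM (limma adjusted p = 0.814 and 0.286) and at 1.44 and 2.26 on scaled values (limma adjusted p = 0.0692 and 0.0906), with no call. Leaving out P0 replicate 1, both were called higher on scaled values, at 1.86 and 3.41 (limma adjusted p = 9.26e-04 and 1.78e-04), and in TPM miR-382-5p was called at 1.88 (limma adjusted p = 6.60e-04). The differences between these groups were not tested.

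**Figure D4:**
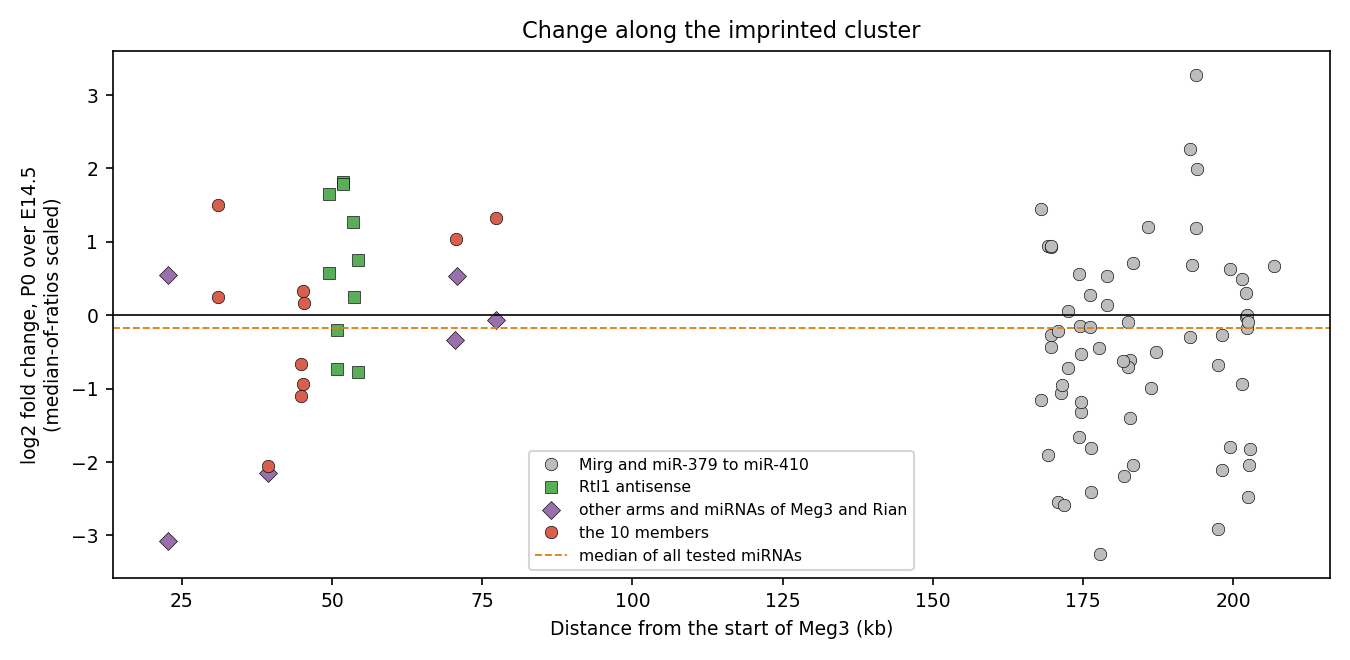
Log2 fold change after median-of-ratios scaling, P0 over E14.5, against distance in kb from the start of Meg3 for the tested miRNAs of the cluster; the dashed line is the median of all tested miRNAs (−0.17). The members (light red circles) run from −2.05 for miR-493-3p to 1.50 for miR-673-5p, and the 2 Rian members are above 1.

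In the authors' deposited table, 0 of the 10 members had an adjusted p-value below 0.05, against 10.4% of all miRNAs, and 2 had an unadjusted p-value below 0.05. The authors' deposited table gave log2 fold changes of −2.66 for miR-493-3p (standard error 1.12, adjusted p = 0.0871), −0.78 for miR-337-5p and −0.87 for miR-337-3p. It gave 1.36 for miR-341-3p (standard error 0.64, adjusted p = 0.126) and 1.15 for miR-370-3p. For miR-673-5p the authors' deposited table listed 8.27 with a standard error of 4.67, the largest standard error among the members. The estimates in that table were above 0 for 6 members and below 0 for 4, the same split as after median-of-ratios scaling.

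The members did not share 1 pattern over the 6 libraries. As a description over libraries that share the stage split, log2(TPM + 1) of miR-337-3p correlated with that of miR-493-3p at r = 0.95, with miR-540-5p at 0.92 and with miR-337-5p at 0.91, and with that of miR-370-3p at −0.38. miR-341-3p and miR-370-3p correlated at 0.53. The members' mean standardised profile was most like those of miR-199b-3p (r = 0.97), miR-28a-5p (0.96), miR-412-5p (0.94), miR-199a-5p (0.94) and miR-369-5p (0.94), among 426 miRNAs averaging 10 TPM or more. Of these 5, miR-412-5p and miR-369-5p lie in the same imprinted cluster, and miR-199a-5p was on the stromal list. The members' GC content, which ran from 40.9% (miR-337-3p) to 68.2% (miR-370-3p), ranked with their log2 fold change: Spearman's rho was 0.75 over the 10 members in TPM and 0.71 after scaling, or 0.91 and 0.85 over the 9 members other than miR-673-5p. Over the 582 tested miRNAs with a RefSeq sequence it was 0.38 and 0.35. Neither the GC comparison nor the omission of miR-673-5p was planned, and that omission raised both coefficients. These coefficients are across miRNAs, which are not independent replicates, and the part of GC content in the differences among members was not tested.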

How the data were processed

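Per the labels' protocols, total RNA went into single-end QIAseq small RNA libraries. The submitters' processing notes name featureCounts, DESeq2 1.26.0 and mm10; trimming, alignment and the use of molecular tags are not given in the sources used here. The authors deposited TPM values for 6 libraries in 1104 rows, a unit read from column sums of 1000000. They also deposited a normalised signal (baseMean), a log2 fold change and its error, a test score and p-values, per the file headers. The sign of the deposited log2 fold change was read as P0 over E14.5, since it follows the per-library values. TPM times end minus start gave whole multiples in 100% of values (tolerance 1e-06), taken as reads. Where a miRNA had several rows (52 miRNAs, 0 members), the row with most reads was used.

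All 6 libraries were fitted with limma 3.58.1 (R 4.3.3; mean-variance trend) on log2(TPM + 1), over rows with a mean of at least 1 TPM, stage as the only term. Changes of low miRNAs are understated on this scale. Benjamini-Hochberg adjustment ran over all tested miRNAs, with calls below 0.05. Median-of-ratios factors came from 589 rows of recovered reads. The fit was also run on simulated counts with nearly as many raised as lowered miRNAs and no library standing apart. That setting differs from these data, so it is no test of the scaling or of P0 replicate 1. Named were all 10 members, the other detected miRNAs of Meg3 and Rian, the 2 most abundant miRNAs of each further cluster list, and the 5 miRNAs most like the members' mean profile. The alternatives were another scaling, limma-voom, filters at 0 and 10 TPM, a pseudocount of 0.1, summed rows, a replicate block and leaving out each library. The members and lists were chosen with earlier results of these data known. The labels name no culture or batch, and litters were the replicates. Wilson intervals and floors (3 reads) cover counting error only, whereas the limma intervals rest on the spread between libraries.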

Additional observations from a re-analysis of the deposited data

How the results depend on the processing

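In TPM, 229 miRNAs (34.2% of those tested) and 3 members were called. These counts were 73 (10.9%) and 1 with median-of-ratios scaling, 63 (9.4%) and 1 with upper-quartile scaling, and 28 (4.18%) and 0 with limma-voom. With limma-voom 1 member had an unadjusted p below 0.05. The members' median log2 fold change, −1.0 in TPM, was 0.21, 0.31 and 0.13 in these fits. miR-673-3p, miR-540-3p, miR-665-3p and miR-341-3p turned positive with median-of-ratios scaling (0.25, 0.33, 0.17 and 1.04), with upper-quartile scaling (0.34, 0.46, 0.29 and 1.16) and with limma-voom (0.39, 0.22, 0.029 and 1.03). A filter at 10 TPM left 6 members, 2 of them called, against 40.0% of all miRNAs tested there. The members called were 3 with no filter (21.2%), 3 with summed rows (33.4%) and 2 with a pseudocount of 0.1 (30.0%). Leaving out 1 library gave 72 to 420 called miRNAs (10.8% to 61.0% of those tested) and 1 to 4 called members. The 4 called members came where 61.0% were called. In TPM the members' median then ran from −1.27 to −0.85. miR-370-3p ranged from −0.64 to 0.77, turning to −0.64, −0.36 and −0.28 without E14.5 replicate 1, P0 replicate 2 and P0 replicate 3. With median-of-ratios scaling and without P0 replicate 1, a setting chosen after seeing the data, 331 miRNAs (48.0%) and 4 members were called. These called members were miR-493-3p, miR-337-3p, miR-341-3p and miR-370-3p. The members' median was then 0.53, and the 4 reversed members were at 0.64, 0.85, 0.41 and 1.45.

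The libraries came from different litters, and the replicate numbers were not taken as pairs. Same-numbered libraries deviated together with correlations of 0.19, 0.18 and 0.04. E14.5 and P0 replicates 1 and 2 correlated best with their own number, as did E14.5 replicate 3. P0 replicate 3 correlated better with E14.5 replicate 2 (0.08). With the replicate block, 247 miRNAs (36.9%) and 4 members were called in TPM, miR-540-5p being the added one (limma adjusted p = 0.0400). With the block and median-of-ratios scaling, 77 miRNAs (11.5%) and 1 member were called. The members' median was then 0.21, and the same 4 members turned positive at the values given for that scaling. The Rian share and the cluster share differed by 22.2 and −1.09 points with the block (exact sign-flip p = 0.25 for each, the smallest possible). The log2 arm ratio differed by 0.07 to 0.94 for miR-337 and, over libraries with both arms read and with no test, by −0.83 to 0.19 for miR-540 when 1 library was left out, the Rian share by 15.6 to 34.5 points and the cluster share by −1.23 to −0.94 points. From reads in place of TPM the shares differed by 22.4 and −1.08 points. The causes of these changes were not tested. Both arms of miR-673, miR-540-5p and miR-493-3p had under 10 reads in at least 1 library each, which limits the precision of their values there.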
